A study of Mus musculus with 19 samples.

Results

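The Zfp9xx genes are the mouse protein-coding genes whose symbol is Zfp followed by a 3-digit number that begins with 9, most of them zinc finger genes of the KRAB class. They were found by symbol in the GENCODE M21 annotation after the deposited transcript values had been summed per gene. The annotation names 63 such genes. Of these, Zfp967 had no transcript in the table, which left 62 of the 54119 genes in it. The test needed a deposited TPM (transcript abundance per gene, adjusted for length and scaled to one total in every library) of 1 or more in 3 or more libraries, which 59 of the 62 reached, among 14972 genes tested in all. Zfp935, Zfp957 and Zfp969 were at or near 0 in every library and were not tested. On mESC libraries alone 58 members passed this filter, and on EpiLC libraries alone 59 did. The member that passed through EpiLC libraries only was Zfp963, which reached a TPM of 1 in 1 mESC and 6 EpiLC libraries, so no test of its transition is used here, although the counts of members that rose include it in XX and Tet3-/- cells.

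KRAB zinc finger proteins bind DNA through an array of C2H2 zinc fingers, each of which contacts a few bases. Their KRAB domain recruits the co-repressor TRIM28, which in turn brings the histone methyltransferase SETDB1 and HP1 proteins and leads to H3K9 methylation of the bound site. In mouse embryonic stem cells this system is best known for silencing endogenous retroviruses and other transposable elements, and the genes lie in clusters of tandem copies that have expanded in rodents.

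The study sequenced total RNA, depleted of ribosomal RNA, from mouse embryonic stem cells (mESC) and from the epiblast-like cells (EpiLC) derived from them, a culture model of the step from the naive to the early postimplantation epiblast. Its stated purpose was to ask whether TET3, an enzyme that oxidises 5-methylcytosine, is needed for that step. The mESC were kept in N2B27 with inhibitors of GSK3 and of MEK1/2 and with LIF, and the EpiLC were made by feeding FGF5 and Activin A without LIF for 5 days. XX denotes wild-type cells of the female line LF2, with 3 mESC and 3 EpiLC libraries. XY denotes wild-type cells of the line E14, also with 3 and 3. Tet3-/- denotes LF2 cells labelled as mutants #1 to #4, with 4 mESC libraries and, for #1, #3 and #4, 3 EpiLC libraries. Sex and cell line change together between XX and XY and cannot be told apart. The labels do not say whether the numbered mutants are separate clones, or whether replicates are separate cultures, so the p-values below measure only the spread between these libraries.

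Levels are given as scaled TPM, which is TPM divided by a factor for each library, and fold changes on the scale of log2(scaled TPM + 1), which understates the change of low genes. The table keeps no read depth, so the depth behind a value is unknown. Protein-coding genes took 22.8% to 49.6% of the TPM of a library, and the scaling factors ran from 0.596 to 1.74. Both were highest in XY EpiLC, at 47.4% to 49.6% and 1.40 to 1.74. In XX EpiLC they were 30.5% to 32.5% and 0.872 to 1.02, so RNA composition differed between these groups. The summed level of 6 naive markers fell from between 687 and 1010 in mESC to between 208 and 341 in EpiLC. Most of the EpiLC sum was Pou5f1 (mean 224 in XX). Esrrb and Zfp42 had means of 13.2 and 18.2 in XX EpiLC, against 0.451 and 4.3 in XY EpiLC. The summed level of 5 EpiLC markers was 12.7 to 34.8 in mESC and 51.6 to 201 in EpiLC. One of these, Otx2, went the other way in XX cells, from a mean of 24 in mESC to 11.6 in EpiLC. Its means were 21 and 18.8 in Tet3-/- cells and 1.68 and 38.7 in XY cells. Summed over all its transcripts, Tet3 stood at 0.696 to 1.25 in XX mESC against 0.555 to 0.825 in Tet3-/- mESC, and at 1.39 to 1.91 against 1.02 to 1.28 in EpiLC. The part of the gene that was deleted is not given, so these sums do not check the mutant label. Tet3-/- EpiLC #3 stood apart, with a summed level of 4 mesoderm markers of 96.1, against 3.78 and 4.7 in the other mutant EpiLC libraries, and of 5 primitive endoderm markers of 6.32, against 1.13 and 1.32.

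From mESC to EpiLC most Zfp9xx genes fell and few rose. In XX cells 32 of the 59 fell and 4 rose, where 27% of all tested genes fell and 23% rose. In XY cells 35 fell and 4 rose, against a background of 26.4% and 24.5%, or 50.9% in either direction. In Tet3-/- cells 41 fell and 3 rose, against 27.9% and 23.7%. All of these calls are at a Benjamini-Hochberg adjusted p under 0.05 in limma, over all tested genes. Over the members the log2 fold change had a median of -0.51 (XX), -0.59 (XY) and -0.57 (Tet3-/-), beside -0.05, -0.04 and -0.03 over all tested genes. In bulk RNA fewer cells that express a gene and less of its RNA per cell cannot be told apart.

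The 3 transitions share no library. In all 3 of them 28 members fell and 2 members (Zfp948 and Zfp946) rose, and 9 passed the test in none. Of all tested genes 14.9% fell in all 3, 13.6% rose in all 3 and 27.5% passed in none. Only Zfp956 was called in opposite directions, higher in XY EpiLC and lower in Tet3-/- EpiLC. Its Tet3-/- call was lost with the mutant number as a block (-0.23, limma adjusted p = 0.123), without Tet3-/- mESC replicate 2 (adjusted p = 0.0598) and without Tet3-/- EpiLC replicate 3 (adjusted p = 0.0578). It was also lost under the deposited TPM (-0.35, adjusted p = 0.125), with factors over protein-coding genes (-0.29, adjusted p = 0.0594) and in a fit of only the groups compared (-0.27, adjusted p = 0.0808). For 35 of the 59 tested members all XX EpiLC libraries lay below all XX mESC libraries, as for 32.9% of all tested genes. For XY these were 40 of 59, against 35%, and for Tet3-/- 41 of 59, against 26.5%. All EpiLC libraries lay above all mESC libraries for 5, 5 and 3 of the 59, against 28.4%, 29.8% and 22.8%. The XX and Tet3-/- counts of these rises include Zfp963, which passed the filter through EpiLC libraries only. Under the deposited TPM, without the scaling, the median of all tested genes shifted to 0.14 in XX, 0.54 in XY and -0.13 in Tet3-/- cells, and the XY transition then had 18 members lower and 13 higher in place of 35 and 4. With factors taken over protein-coding genes alone, the XY counts were 27 lower and 8 higher.

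The 328 other protein-coding genes with a numbered Zfp symbol give a nearer comparison, of which 292 were tested. Of these, 28.8% fell and 18.5% rose in XX cells, 28.8% and 25.7% in XY cells, and 36% and 15.8% in Tet3-/- cells. Their median log2 fold changes were -0.08, -0.03 and -0.09. The share of Zfp9xx genes that fell was 54.2%, 59.3% and 69.5% in the same transitions.

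**Figure D1:**
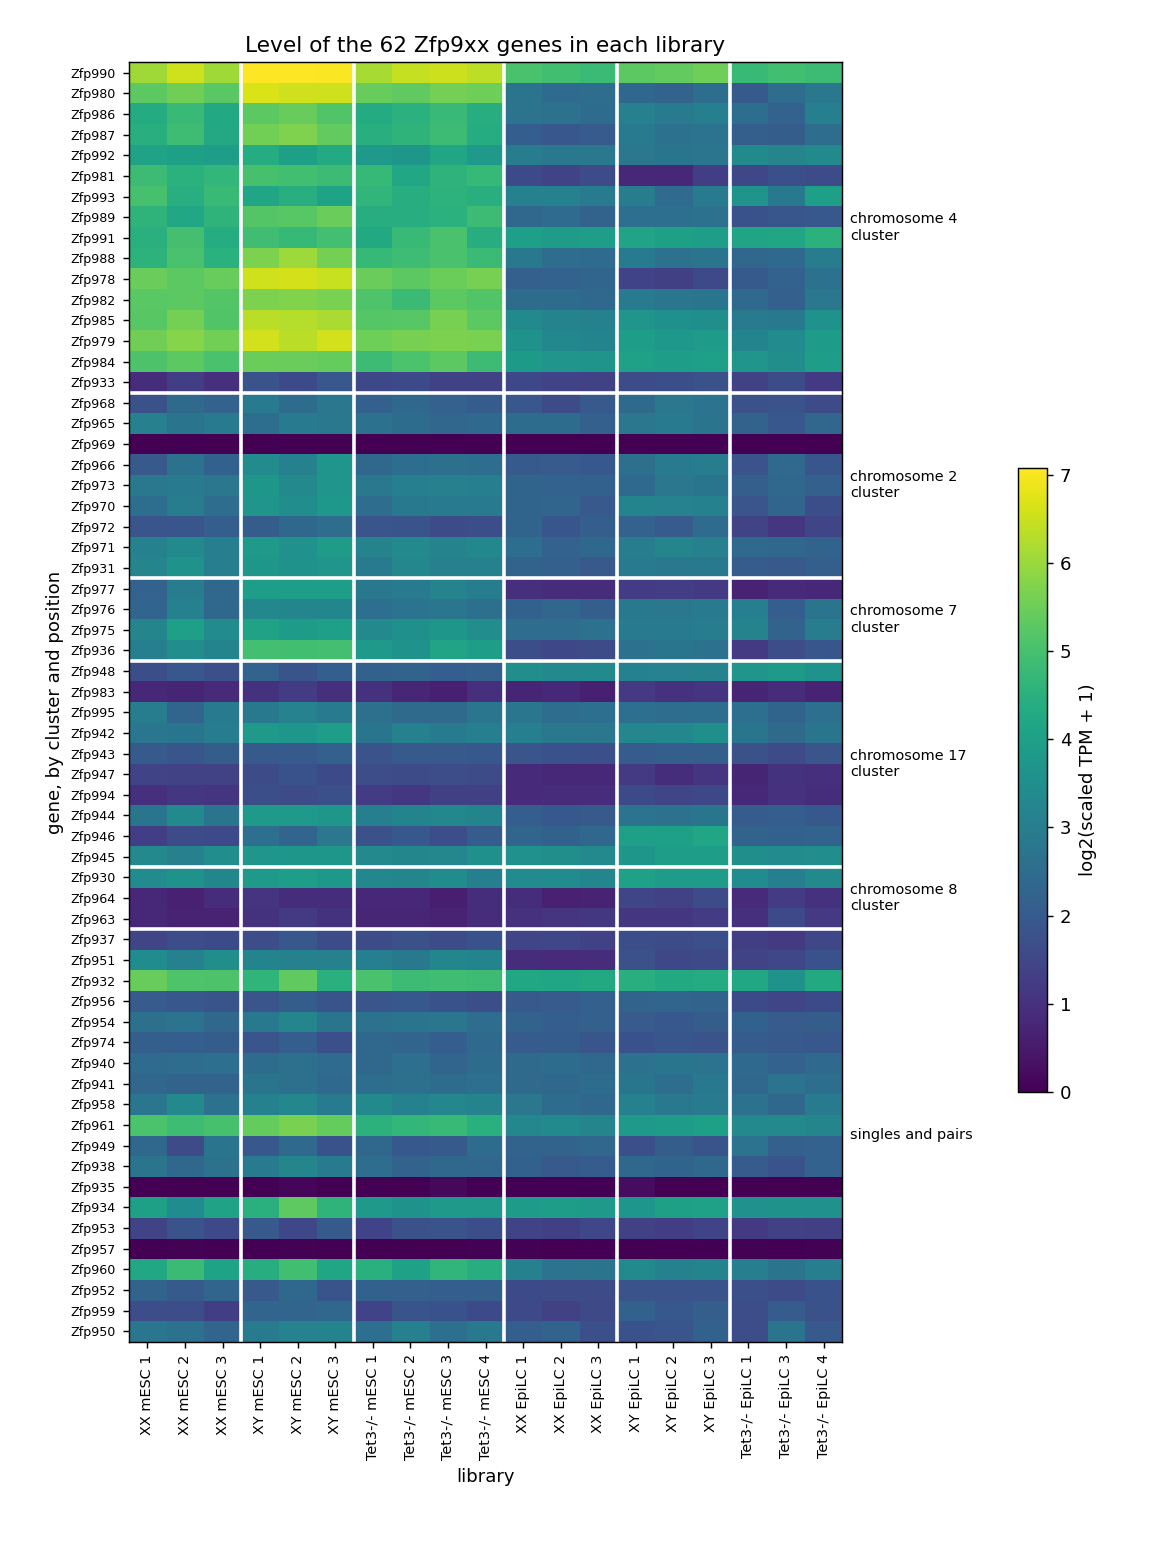
Heat map of log2(scaled TPM + 1) for the 62 Zfp9xx genes (rows, by cluster and position) in the 19 libraries (columns, by group). In the chromosome 4 block, at the top, the rows are brighter in mESC than in EpiLC libraries, with Zfp933 at the bottom of the block low in all 19.

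The genes were grouped by position, with members on a chromosome joined while their starts lay at most 2 Mb apart. The chromosome 4 cluster holds 16 members within 2.34 Mb, from position 145510759 to 147848366 (GRCm38). The chromosome 17 cluster holds 10 (21567008 to 22867134), the chromosome 2 cluster 9 (175372436 to 178078476), the chromosome 7 cluster 4 (42579783 to 43192109) and the chromosome 8 cluster 3 (69209038 to 69749970). The remaining 20 are singles and pairs.

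The chromosome 4 cluster fell almost as a block and carried most of the summed level of the members in mESC, though not in EpiLC. In XX cells 15 of its 16 members fell and 1 rose, in XY cells 15 fell, and in Tet3-/- cells 14 fell. The median log2 fold change over the 16 was -2.11, -2.66 and -2.16. Of the 43 members elsewhere, 17, 20 and 27 fell, 3, 4 and 3 rose, and their medians were -0.29, -0.39 and -0.37. That is 39.5%, 46.5% and 62.8% lower and 6.98%, 9.3% and 6.98% higher. Of all tested genes 27%, 26.4% and 27.9% fell and 23%, 24.5% and 23.7% rose.

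Summed over the chromosome 4 members, the level was 485, 550 and 462 scaled TPM in the XX mESC libraries and 133, 119 and 114 in XX EpiLC. In XY it was 871, 866 and 830 in mESC and 150, 141 and 151 in EpiLC. In Tet3-/- cells it was 467, 482, 565 and 499 in mESC and 120, 117 and 156 in EpiLC. No EpiLC library reached the lowest mESC library of any genotype. The means were 499.1 ± 45.6 (SD, n = 3), 855.7 ± 22.5 (n = 3) and 503.3 ± 42.9 (n = 4) in XX, XY and Tet3-/- mESC, which were 4.08, 5.82 and 3.85 times those of the EpiLC. The cluster made up 62.8% to 69% of the summed level of all 62 members in mESC libraries and 35.7% to 45.7% in EpiLC libraries.

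The steepest falls in all 3 genotypes were those of Zfp978, Zfp980 and Zfp981. Zfp978 stood at 43.4, 37.9 and 41.8 in XX mESC, 94.4, 97.8 and 88 in XY mESC and 43.4, 38.3, 44.2 and 48.1 in Tet3-/- mESC (scaled TPM). In EpiLC it stood at 3.52, 3.67 and 4 in XX, 1.7, 1.51 and 1.98 in XY and 3, 3.66 and 5.39 in Tet3-/- cells. The mESC libraries were all at least 37.9 and the EpiLC libraries at most 5.39, and the XY libraries were the highest of all in mESC and the lowest in EpiLC. Zfp978 fell with log2 fold changes of -3.15, -5.11 and -3.17 in XX, XY and Tet3-/- cells (SE 0.14, 0.14 and 0.13), with limma adjusted p of 2.6e-11, 9.8e-14 and 7.1e-12.

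Zfp980 was again highest in XY mESC, at 38.1, 45.4 and 37.6 in XX mESC, 101, 94.2 and 93.7 in XY mESC and 42.4, 40.1, 47.3 and 44.5 in Tet3-/- mESC. Its EpiLC levels were 5.61, 4.52 and 4.72 in XX, 4.16, 3.8 and 4.84 in XY and 3.01, 4.82 and 6.1 in Tet3-/- cells. Here the EpiLC groups overlapped one another, and each lay far below its own mESC group. The log2 fold changes were -2.80, -4.21 and -3.02 in XX, XY and Tet3-/- cells (SE 0.16, 0.16 and 0.15), with limma adjusted p of 5.2e-10, 3.3e-12 and 6.3e-11.

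Zfp981 was at 27.6, 22.1 and 24.7 in XX mESC, 31.4, 29.4 and 27.7 in XY mESC and 25.8, 17.9, 23.2 and 25.7 in Tet3-/- mESC. Its EpiLC levels were 2.03, 1.74 and 2.1 in XX, 0.774, 0.776 and 1.47 in XY and 1.92, 2.33 and 2.13 in Tet3-/- cells. The 3 XY EpiLC libraries were the lowest, below every XX EpiLC library. Zfp981 fell with log2 fold changes of -3.12, -3.94 and -2.94 in XX, XY and Tet3-/- cells (SE 0.15, 0.15 and 0.14), with limma adjusted p of 5.7e-11, 2.8e-12 and 3.2e-11.

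Zfp990, the most abundant member, was at 66.4, 93.7 and 65.9 in XX mESC, 134, 133 and 131 in XY mESC and 69.6, 86.2, 92.6 and 81.2 in Tet3-/- mESC. Its EpiLC levels were 32.1, 29.4 and 27.1 in XX, 38.1, 40.8 and 44.4 in XY and 26.4, 29.3 and 27.6 in Tet3-/- cells. It remained the most abundant member in EpiLC, with every EpiLC library under every mESC library, and the mESC means were 2.55, 3.23 and 2.96 times the EpiLC means in XX, XY and Tet3-/- cells. Zfp979 and Zfp985 were also abundant. Zfp979 was at 45.4, 54 and 46.2 in XX mESC, 95.7, 80.3 and 94.8 in XY mESC and 44.3, 47.9, 50.5 and 49.1 in Tet3-/- mESC. In EpiLC this became 11.2, 8.8 and 8.11 in XX, 14.2, 12.8 and 13.9 in XY and 8.2, 9.61 and 13.7 in Tet3-/- cells. Zfp985 was at 37, 47.2 and 34.9 in XX mESC, 80.5, 77 and 70.9 in XY mESC and 35.8, 36.4, 48.6 and 37.9 in Tet3-/- mESC. After the transition it was at 9.33, 8.05 and 7.56 in XX, 11.9, 10.8 and 10.5 in XY and 6.6, 6.22 and 11.1 in Tet3-/- cells. Neither gene's EpiLC libraries overlapped the mESC libraries of any genotype, and XY was the highest mESC group of both.

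Zfp982, which has been described as a regulator of stem cell genes such as Nanog in mESC, was at 37.7, 38 and 35.1 in XX mESC, 50.1, 52.2 and 49.2 in XY mESC and 33.7, 27.4, 38.6 and 34.4 in Tet3-/- mESC. The EpiLC libraries stood at 4.67, 4.66 and 4.26 in XX, 6.43, 5.82 and 5.75 in XY and 4.34, 3.49 and 5.97 in Tet3-/- cells. The log2 fold changes were -2.78, -2.88 and -2.64 in XX, XY and Tet3-/- cells. Zfp984 was at 33.4, 38.3 and 31.7 in XX mESC, 44.2, 43.1 and 41.2 in XY mESC and 28.1, 32.7, 37.9 and 27.7 in Tet3-/- mESC. Its EpiLC levels were 13.6, 11.8 and 11.6 in XX, 15.6, 14.2 and 14.8 in XY and 11.9, 10.3 and 14.2 in Tet3-/- cells, and its log2 fold changes were -1.41, -1.47 and -1.31. Both genes separated all EpiLC from all mESC libraries.

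Zfp986, Zfp987, Zfp988 and Zfp989 fell in all 3 transitions. Zfp986 was at 19.3, 26.5 and 18.7 in XX mESC, 38.4, 42 and 34.6 in XY mESC and 19.5, 21.9, 26.2 and 20.3 in Tet3-/- mESC, and in EpiLC at 5.42, 5.29 and 4.71 in XX, 7.53, 6.45 and 7.3 in XY and 4.89, 3.67 and 7.29 in Tet3-/- cells. Zfp987 was at 20.5, 28.5 and 18.2 in XX mESC, 46.7, 51.4 and 40.9 in XY mESC and 20.7, 23.3, 28 and 20 in Tet3-/- mESC, and in EpiLC at 3.32, 2.79 and 3.06 in XX, 6.4, 5.33 and 5.49 in XY and 3.42, 3.23 and 4.79 in Tet3-/- cells. In both, XY mESC was the highest group and no EpiLC library reached a mESC library. Zfp988 was at 23, 32.2 and 22.1 in XX mESC, 50.3, 65 and 47.1 in XY mESC and 25.9, 28.4, 32 and 27.1 in Tet3-/- mESC, and in EpiLC at 6.33, 4.72 and 4.53 in XX, 6.44, 5.39 and 5.65 in XY and 4.04, 4.36 and 6.78 in Tet3-/- cells. Zfp989 was at 23.4, 18.1 and 23.4 in XX mESC, 35.6, 37.1 and 42.7 in XY mESC and 20.1, 20.4, 22 and 27.7 in Tet3-/- mESC, and in EpiLC at 4.24, 4.56 and 3.73 in XX, 5.04, 5.02 and 5.37 in XY and 2.47, 2.71 and 2.85 in Tet3-/- cells. The log2 fold changes in XX, XY and Tet3-/- cells were -1.86, -2.28 and -1.90 for Zfp986, -2.51, -2.81 and -2.32 for Zfp987, -2.10, -3.00 and -2.30 for Zfp988 and -2.12, -2.68 and -2.67 for Zfp989.

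Zfp992 and Zfp993 had the Tet3-/- values nearest to 0 among the 14 chromosome 4 members that fell in all 3 transitions. Zfp992 was at 15.8, 15.2 and 14.7 in XX mESC, 19.7, 15.3 and 19 in XY mESC and 13.3, 12.5, 17.1 and 13.1 in Tet3-/- mESC, and in EpiLC at 7.04, 6.18 and 6.14 in XX, 5.97, 5.74 and 5.81 in XY and 9.4, 8.24 and 9.32 in Tet3-/- cells. Zfp993 was at 31.5, 20.7 and 26.7 in XX mESC, 17.3, 21.2 and 16.1 in XY mESC and 24.4, 20.3, 22.7 and 20.5 in Tet3-/- mESC, and in EpiLC at 7.7, 7.64 and 6.66 in XX, 6.97, 4.6 and 6.61 in XY and 11.7, 6.24 and 14.9 in Tet3-/- cells. For both genes every EpiLC library stayed below every mESC library, and Tet3-/- EpiLC #4 had the highest EpiLC value of Zfp993. The log2 fold changes were -1.13, -1.46 and -0.58 for Zfp992 and -1.69, -1.45 and -1.01 for Zfp993. The difference between the Tet3-/- and XX falls did not pass the test for either (adjusted p = 0.16 and 0.44).

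Zfp991 and Zfp933 were the exceptions in the cluster. Zfp991 was at 21.5, 30.8 and 19.7 in XX mESC, 29, 25.5 and 30.2 in XY mESC and 18.6, 26.5, 32 and 20.2 in Tet3-/- mESC, and in EpiLC at 15, 14 and 14.4 in XX, 16.7, 15.3 and 14.4 in XY and 16.7, 16.8 and 22.2 in Tet3-/- cells. It fell in XX (-0.67) and XY (-0.83), whereas the Tet3-/- value of -0.35 did not pass the test and its libraries overlapped. Zfp933, the last member at the distal end, was at 0.915, 1.5 and 0.978 in XX mESC, 2.52, 1.99 and 2.8 in XY mESC and 1.92, 1.99, 1.6 and 1.56 in Tet3-/- mESC. After the transition it was at 1.89, 1.67 and 1.61 in XX, 2.08, 2.26 and 2.35 in XY and 1.59, 2.06 and 1.32 in Tet3-/- cells. It rose in XX cells by 0.36 ± 0.13 (SE) on the log2 scale (limma adjusted p = 0.027), and its XY and Tet3-/- values of -0.08 and -0.07 were not called. The XX call was lost without XX mESC replicate 1 or 3 or XX EpiLC replicate 1 or 2 (0.29 to 0.38, limma adjusted p = 0.0539 to 0.112). It was also lost with a replicate block, without a filter, under the deposited TPM and in a fit of only the groups compared (0.36 to 0.46, adjusted p = 0.0527 to 0.181). It was far below the other 15 in mESC, at most 2.8 in any library.

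**Figure D2:**
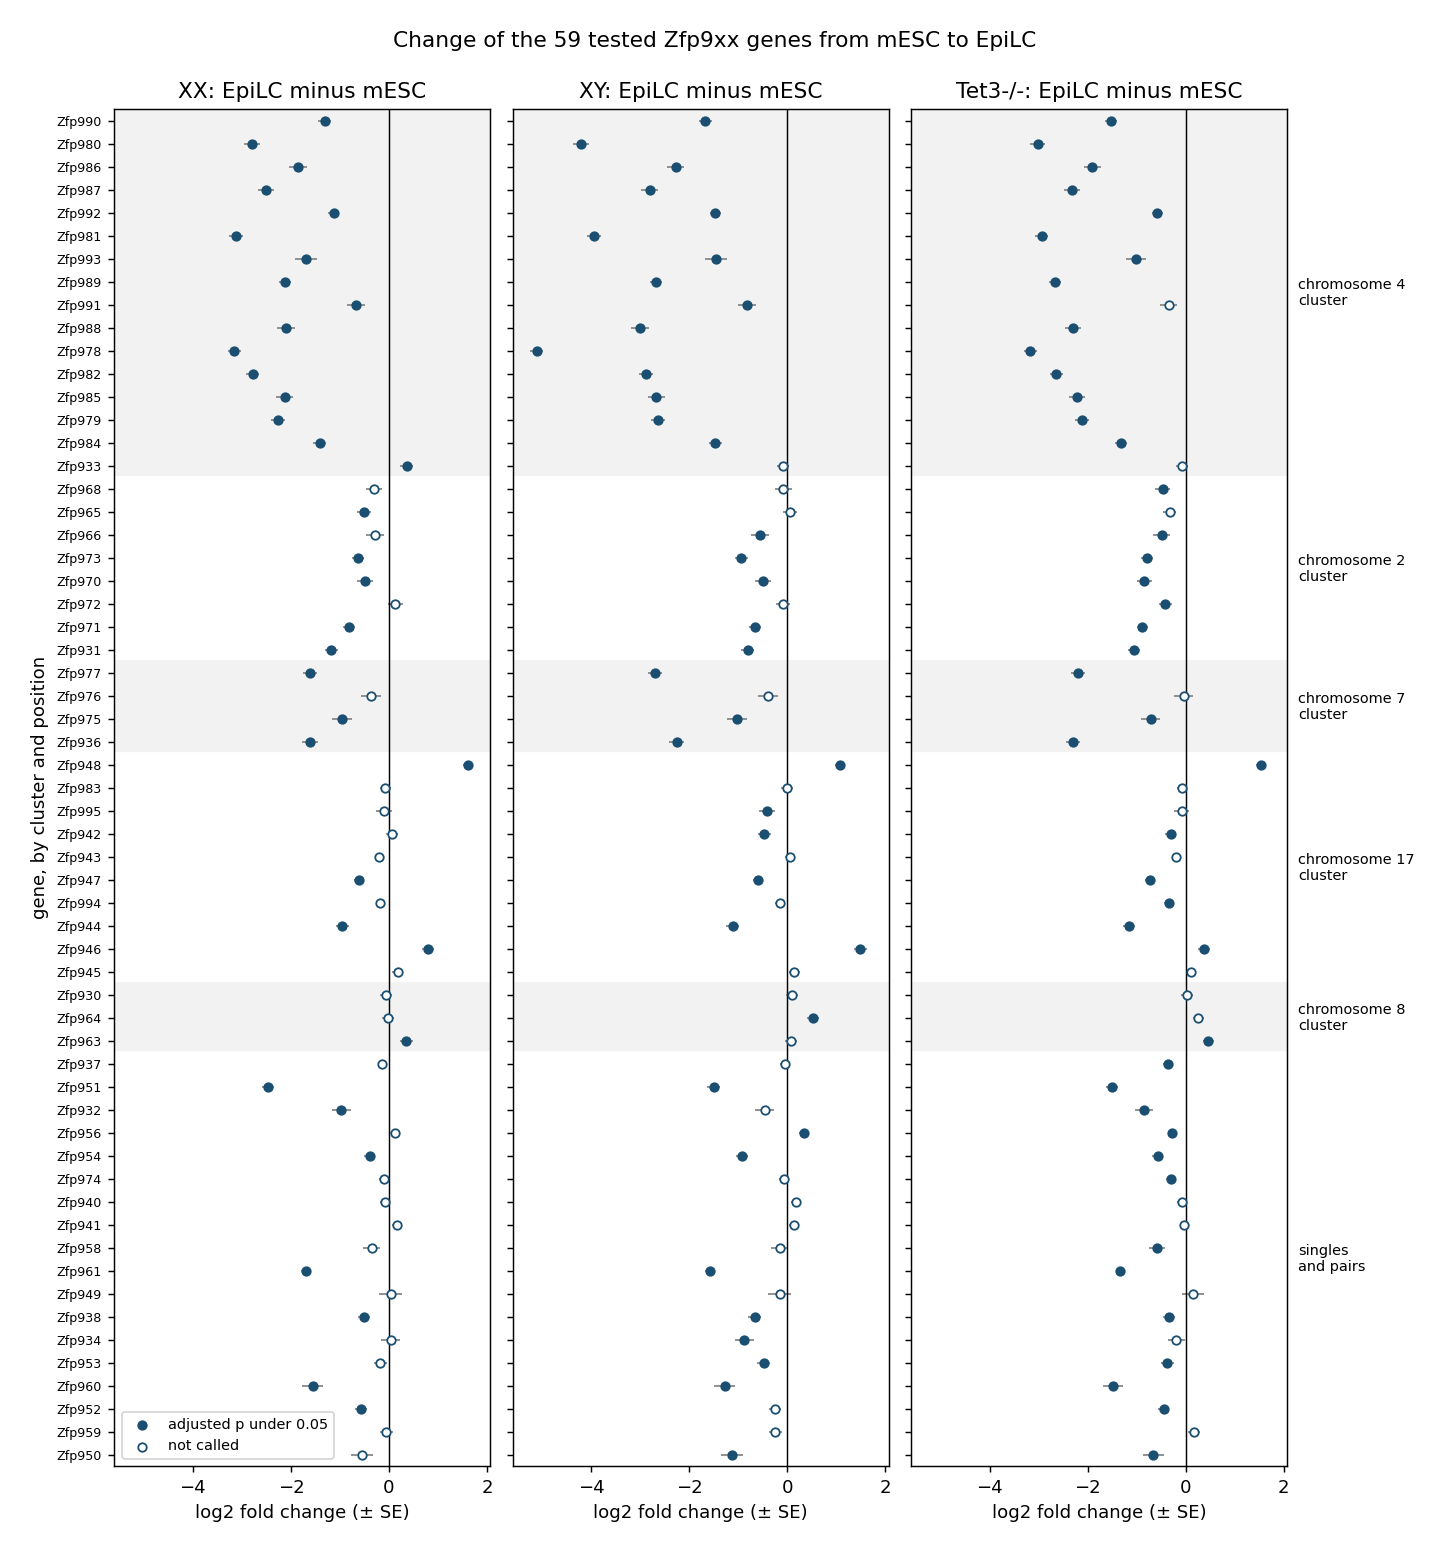
Log2 fold change (EpiLC minus mESC) with its standard error for the 59 tested Zfp9xx genes in XX, XY and Tet3-/- cells, by cluster and position. Filled points passed the test; 15, 15 and 14 of the 16 chromosome 4 points are filled and left of 0, and only Zfp948 and Zfp946 are filled and right of 0 in all 3 panels.

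The RefSeq promoter windows show one feature that members of the chromosome 4 cluster share. Such a window runs from 250 bases before a gene's start to 50 bases after it, and 52 of the 62 members had one, among them 10 of the 16 on chromosome 4. The longest run of bases that at least 8 of these 10 members shared in the 250 bases before the start was TGGGAAGCTAATTAA, 15 bases long. It was chosen from these sequences, so its count among them is fixed by that choice, and it was then searched for on both strands of the same 250 bases in all windows. It occurs in 8 of the 10 chromosome 4 members (Zfp979, Zfp980, Zfp981, Zfp982, Zfp984, Zfp985, Zfp987 and Zfp988) and in no other member. The run is absent from the windows listed for Zfp933 and Zfp993, and the Zfp993 window lies away from that gene's GENCODE start. In the whole table the run occurs in 12 of 32851 windows (0.0365%), all on chromosome 4. The other 4 belong to Gm13212, Rex2, Zfp534 and Zfp600, which are no members and are named because their windows hold the run, after their values were seen. All 12 genes fell in all 3 transitions, with log2 fold changes of -1.41 to -3.16 in XX. Of the 16 chromosome 4 members 14 fell in all 3, and of all tested genes 14.9% did. Because the run was picked within a cluster that fell almost as a block, the falls of its holders do not tie the run to the fall. A part of the run in the fall was not tested. The 8 member windows were 59.5% to 89% identical in pairs, with a median of 74.2%.

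The 250 bases before the start are shown for 4 of the 8 members with the run, which is in capitals, 5′ to 3′ on the gene's strand (RefSeq, GRCm38.p6). They are Zfp980 (chr4:145670447-145670696, plus strand), Zfp985 (chr4:147553027-147553276, plus), Zfp979 (chr4:147642509-147642758, minus) and Zfp988 (chr4:147305354-147305603, plus). The run begins 141, 136, 141 and 114 bases before the start.
Zfp980: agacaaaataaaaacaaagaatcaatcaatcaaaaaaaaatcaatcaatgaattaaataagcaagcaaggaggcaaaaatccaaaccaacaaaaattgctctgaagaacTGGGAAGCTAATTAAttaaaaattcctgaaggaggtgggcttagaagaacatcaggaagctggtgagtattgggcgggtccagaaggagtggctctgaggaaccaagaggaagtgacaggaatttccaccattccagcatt
Zfp985: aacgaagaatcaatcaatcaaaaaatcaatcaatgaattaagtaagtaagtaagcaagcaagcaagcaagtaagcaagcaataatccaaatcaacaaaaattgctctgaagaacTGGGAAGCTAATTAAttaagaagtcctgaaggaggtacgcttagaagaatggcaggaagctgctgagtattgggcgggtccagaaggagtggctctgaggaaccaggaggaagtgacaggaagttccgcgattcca
Zfp979: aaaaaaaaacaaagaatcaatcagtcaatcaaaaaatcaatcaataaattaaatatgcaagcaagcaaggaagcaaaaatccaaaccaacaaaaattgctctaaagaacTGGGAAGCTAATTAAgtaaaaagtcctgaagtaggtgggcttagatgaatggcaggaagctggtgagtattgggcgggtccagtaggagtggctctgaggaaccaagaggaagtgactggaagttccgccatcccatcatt
Zfp988: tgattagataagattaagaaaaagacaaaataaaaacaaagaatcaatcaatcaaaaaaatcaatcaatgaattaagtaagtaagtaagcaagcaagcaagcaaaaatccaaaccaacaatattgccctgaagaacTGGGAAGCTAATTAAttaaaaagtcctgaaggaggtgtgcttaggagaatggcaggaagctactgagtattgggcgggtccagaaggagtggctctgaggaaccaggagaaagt

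The windows of 3 members without the run are shown beside them, for the range of transitions found there. They are listed for Zfp993 (chr4:146512599-146512848, plus strand), which fell in all 3 transitions, Zfp933 (chr4:147848419-147848668, minus strand), which fell in none, and Zfp948 (chr17:21566728-21566977, plus strand), which rose in all 3. The Zfp993 window does not lie next to the GENCODE start of that gene, which is at 146610961. It lies within the GENCODE span of Zfp981 (146502027 to 146539395), so it may not be the promoter of the gene measured here. Of the 42 tested members that have a window without the run, 14 fell in all 3 transitions, where 14.9% of all tested genes did. The 14 include Zfp993, despite the doubt about its window, and members of other clusters such as Zfp931 and Zfp936. A part of the run in the falls was not tested.
Zfp993: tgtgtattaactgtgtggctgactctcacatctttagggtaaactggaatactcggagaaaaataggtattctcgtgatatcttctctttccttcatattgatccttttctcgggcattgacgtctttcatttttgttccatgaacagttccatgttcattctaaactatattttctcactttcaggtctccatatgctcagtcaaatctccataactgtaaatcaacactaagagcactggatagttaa
Zfp933: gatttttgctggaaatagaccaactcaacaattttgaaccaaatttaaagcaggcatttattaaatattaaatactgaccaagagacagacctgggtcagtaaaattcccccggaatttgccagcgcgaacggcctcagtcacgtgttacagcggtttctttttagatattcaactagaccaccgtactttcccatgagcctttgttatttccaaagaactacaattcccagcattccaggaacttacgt
Zfp948: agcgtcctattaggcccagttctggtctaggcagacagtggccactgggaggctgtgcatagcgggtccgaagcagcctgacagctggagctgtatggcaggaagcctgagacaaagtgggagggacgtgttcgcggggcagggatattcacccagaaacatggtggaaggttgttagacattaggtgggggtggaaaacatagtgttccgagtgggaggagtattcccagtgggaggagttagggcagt

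CG dinucleotides, the sites of DNA methylation, numbered 1 to 7 in the 250 bases of the 8 member windows with the run, with a median of 2.5. Zfp980 and Zfp988 had 1, and Zfp984 had 7. The windows listed for Zfp993, Zfp933 and Zfp948 held 4, 8 and 7. Over all windows of a cluster, counted in the same 250 bases, the median was 3 for the chromosome 4 members and 3 for the chromosome 2 members, 6.5 for chromosome 7, 7.5 for chromosome 17, and 6 over all windows of the table. DNA methylation was not measured in these files.

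Among the chromosome 2 members the calls were all in one direction. Of 8 tested, 5, 5 and 7 fell in XX, XY and Tet3-/- cells and none rose. That is 62.5%, 62.5% and 87.5% lower, beside 27%, 26.4% and 27.9% of all tested genes. The background of rises was 23%, 24.5% and 23.7%. None of the 8 rose at an unadjusted p under 0.05 in limma either, and their medians were -0.50, -0.52 and -0.64. Zfp931, Zfp970, Zfp971 and Zfp973 fell in all 3 transitions. Zfp931 was at 8.41, 11.5 and 7.22 in XX mESC, 12.5, 11.1 and 11.9 in XY mESC and 6.76, 8.6, 7.51 and 7.69 in Tet3-/- mESC, and in EpiLC at 3.8, 3.51 and 2.92 in XX, 6.64, 6.14 and 6.26 in XY and 3.17, 2.94 and 3.42 in Tet3-/- cells. Zfp971 was at 7.64, 9.42 and 7.37 in XX mESC, 13, 10.9 and 13.9 in XY mESC and 7.91, 9, 8.05 and 8.83 in Tet3-/- mESC, and in EpiLC at 4.84, 3.68 and 4.14 in XX, 6.81, 8.34 and 7.5 in XY and 4.36, 4.24 and 3.73 in Tet3-/- cells. Both separated mESC from EpiLC within every genotype. Zfp970 was at 4.83, 6.94 and 4.73 in XX mESC, 11.9, 9.97 and 12.7 in XY mESC and 4.81, 6.26, 6.46 and 6.72 in Tet3-/- mESC, and in EpiLC at 3.88, 3.99 and 2.94 in XX, 8.09, 7.83 and 7.67 in XY and 2.67, 3.98 and 2.27 in Tet3-/- cells. Zfp973 was at 6.19, 6.57 and 6.06 in XX mESC, 12.5, 9.06 and 11.9 in XY mESC and 6.18, 7.35, 7.51 and 7.35 in Tet3-/- mESC, and in EpiLC at 3.87, 3.65 and 3.61 in XX, 4.36, 6 and 5.67 in XY and 3.43, 4.15 and 3.47 in Tet3-/- cells. XY libraries were the highest in each state for Zfp970, and the log2 fold changes of these 4 genes ran from -0.49 to -1.17.

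The 4 chromosome 7 members held both steep falls and none. Zfp936 and Zfp977 fell in all 3 transitions, as did Zfp975, while Zfp976 was called in none. Zfp936 was at 7.38, 10 and 8.19 in XX mESC, 30, 29.5 and 30.2 in XY mESC and 13.1, 11.4, 16.4 and 14.6 in Tet3-/- mESC. EpiLC libraries held 2.24, 1.92 and 2.15 in XX, 5.28, 5.76 and 5.35 in XY and 1.31, 2.16 and 2.72 in Tet3-/- cells. XY mESC stood well above the other groups, XX mESC was the lowest of the mESC groups, and no EpiLC library overlapped a mESC library. The log2 fold changes were -1.61, -2.26 and -2.29 in XX, XY and Tet3-/- cells. Zfp977 was at 3.71, 6.89 and 4.23 in XX mESC, 14.7, 14.2 and 14.3 in XY mESC and 6.19, 6.43, 8 and 6.83 in Tet3-/- mESC, and in EpiLC at 0.92, 0.85 and 0.915 in XX, 1.41, 1.44 and 1.28 in XY and 0.584, 0.835 and 0.724 in Tet3-/- cells. Again XY mESC was apart at the top, and the log2 fold changes were -1.61, -2.70 and -2.19. Zfp975 was at 8.28, 14.8 and 9.63 in XX mESC, 15.8, 13.9 and 14.9 in XY mESC and 8.97, 10.7, 12.5 and 10 in Tet3-/- mESC, and in EpiLC at 4.78, 4.8 and 5.26 in XX, 6.75, 6.68 and 6.8 in XY and 8.04, 3.79 and 6.85 in Tet3-/- cells. Its log2 fold changes were -0.96, -1.03 and -0.72, and its EpiLC libraries stayed below its mESC libraries. Of Zfp976 the log2 fold changes were -0.36, -0.39 and -0.04.

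The chromosome 17 cluster held both members that rose in all 3 transitions. Its summed level was 38.5 ± 1.46 in XX mESC and 43.1 ± 3.15 in XX EpiLC (SD, n = 3), 62.3 ± 1.57 and 64.3 ± 3.31 in XY, and 42.6 ± 2.61 (n = 4) and 43.8 ± 0.61 (n = 3) in Tet3-/- cells, so that the mESC sum was 0.894, 0.968 and 0.971 times the EpiLC sum. Of its 10 members, 2 rose in every transition and 2, 4 and 4 fell. The 20% that rose is near the background of 23%, 24.5% and 23.7% of all tested genes. The shares that fell were 20%, 40% and 40%, beside 27%, 26.4% and 27.9%. Zfp948 was at 2.22, 2.76 and 2.31 in XX mESC, 3.66, 2.59 and 3.33 in XY mESC and 3.6, 3.74, 3.34 and 3.49 in Tet3-/- mESC. In EpiLC it was at 10.3, 8.99 and 9.18 in XX, 7.68, 7.85 and 7.92 in XY and 11.8, 13.2 and 11.4 in Tet3-/- cells. Every EpiLC library was above every mESC library, with Tet3-/- EpiLC the highest group and XY EpiLC the lowest of the EpiLC groups. Zfp948 rose with log2 fold changes of 1.62, 1.08 and 1.53 in XX, XY and Tet3-/- cells (SE 0.10, 0.10 and 0.10), with limma adjusted p of 2.1e-09, 2.2e-07 and 1.3e-09.

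Zfp946 was at 1.49, 2.12 and 1.97 in XX mESC, 5.04, 3.99 and 5.94 in XY mESC and 2.37, 2.83, 2.23 and 3.14 in Tet3-/- mESC. Its EpiLC levels were 4, 3.63 and 4.26 in XX, 14.8, 15.4 and 16.9 in XY and 3.8, 3.56 and 3.79 in Tet3-/- cells. XY EpiLC was above all other groups, and XX and Tet3-/- EpiLC lay within the range of XY mESC or below it. Its log2 fold changes were 0.80, 1.49 and 0.38 in XX, XY and Tet3-/- cells (SE 0.13, 0.13 and 0.12), with limma adjusted p of 7.2e-05, 6.4e-08 and 0.014. Zfp944 and Zfp947 fell in all 3 transitions. Zfp944 was at 5.76, 9.44 and 5.64 in XX mESC, 13.1, 13.3 and 12.4 in XY mESC and 7.34, 8.22, 8.89 and 8.22 in Tet3-/- mESC, and in EpiLC at 3.29, 2.86 and 2.95 in XX, 5.45, 5.26 and 5.68 in XY and 3.15, 3.33 and 2.88 in Tet3-/- cells. Zfp947 was at 1.75, 1.65 and 1.64 in XX mESC, 2.08, 2.44 and 1.99 in XY mESC and 2.18, 2.12, 2.19 and 2.05 in Tet3-/- mESC, and in EpiLC at 0.783, 0.719 and 0.747 in XX, 1.29, 0.909 and 1.11 in XY and 0.676, 1.05 and 0.949 in Tet3-/- cells. Neither gene had an EpiLC library that reached a mESC library of its own genotype. Zfp943, Zfp945 and Zfp983 were called in no transition, and their log2 fold changes lay between -0.19 and 0.18.

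On chromosome 8, Zfp930 was called in no transition, while Zfp963 and Zfp964 were at low levels. Zfp963 was at 0.734, 0.608 and 0.607 in XX mESC, 1.05, 1.32 and 1.05 in XY mESC and 0.698, 0.688, 0.598 and 0.867 in Tet3-/- mESC, and in EpiLC at 0.999, 1.13 and 1.21 in XX, 1.19, 1.18 and 1.39 in XY and 0.975, 1.97 and 1.24 in Tet3-/- cells. Its XX EpiLC libraries lay above all its XX mESC libraries, with log2 fold changes of 0.36, 0.08 and 0.46 in XX, XY and Tet3-/- cells, given without a test since it passed the filter through its EpiLC libraries. Its highest value was that of Tet3-/- EpiLC #3. Zfp964 was at 0.728, 0.581 and 0.86 in XX mESC, 1.1, 0.882 and 0.912 in XY mESC and 0.715, 0.728, 0.505 and 0.916 in Tet3-/- mESC, and in EpiLC at 0.908, 0.573 and 0.613 in XX, 1.79, 1.62 and 2.11 in XY and 0.817, 1.34 and 1.01 in Tet3-/- cells. It rose in XY cells by 0.53 (adjusted p = 0.0018), where the groups did not overlap, and its XX and Tet3-/- values were -0.02 and 0.26.

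Among the 18 tested singles and pairs, 7, 8 and 13 fell and 0, 1 and 0 rose in limma. That is 38.9%, 44.4% and 72.2% lower, beside 27%, 26.4% and 27.9% of all tested genes. The background of rises was 23%, 24.5% and 23.7%. At an unadjusted p under 0.05 the higher counts of the 18 were the same, 0, 1 and 0. Zfp951, Zfp954, Zfp960, Zfp961 and Zfp938 fell in all 3 transitions. Zfp961 was at 32.6, 28.5 and 31.6 in XX mESC, 41, 49.3 and 41.7 in XY mESC and 22.4, 24.6, 26 and 21.5 in Tet3-/- mESC. The EpiLC libraries stood at 8.72, 9.52 and 8.37 in XX, 13, 13.9 and 15.4 in XY and 8.97, 9.01 and 8.34 in Tet3-/- cells. All EpiLC libraries were below all mESC libraries, and the log2 fold changes were -1.69, -1.57 and -1.33. Zfp960 was at 17.8, 27.4 and 16.3 in XX mESC, 20.1, 29.3 and 17.3 in XY mESC and 21.4, 15.6, 24.3 and 20.4 in Tet3-/- mESC, and in EpiLC at 7.61, 5.46 and 5.56 in XX, 9.46, 7.68 and 8.1 in XY and 7.11, 5.57 and 7.12 in Tet3-/- cells. Its log2 fold changes were -1.55, -1.28 and -1.49, with no overlap. Zfp951 was at 9.84, 7.71 and 10.2 in XX mESC, 8.11, 7.57 and 7.53 in XY mESC and 7.38, 6.2, 8.49 and 8.21 in Tet3-/- mESC. After the transition it was at 0.905, 0.807 and 0.852 in XX, 2.38, 1.91 and 1.96 in XY and 1.75, 1.83 and 2.46 in Tet3-/- cells. XX EpiLC was the lowest group, under 1 in all 3 libraries, and the log2 fold changes were -2.46, -1.50 and -1.51.

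Zfp954 was at 5.15, 5.47 and 4.27 in XX mESC, 6.3, 8.37 and 5.79 in XY mESC and 5.32, 5.59, 5.89 and 4.76 in Tet3-/- mESC, and in EpiLC at 3.73, 3.34 and 3.49 in XX, 3.12, 2.86 and 3.28 in XY and 3.63, 3.06 and 3.24 in Tet3-/- cells. Zfp938 was at 5.62, 4.21 and 5.19 in XX mESC, 6.35, 8.32 and 6.73 in XY mESC and 4.75, 3.79, 4.19 and 4.01 in Tet3-/- mESC, and in EpiLC at 3.6, 2.91 and 3.18 in XX, 4.21, 3.9 and 4.17 in XY and 3.1, 2.55 and 3.7 in Tet3-/- cells. Both were lower in every EpiLC library than in the mESC libraries of their own genotype. The log2 fold changes were -0.39, -0.92 and -0.57 for Zfp954 and -0.50, -0.67 and -0.34 for Zfp938. Zfp932, which is known to bind and repress endogenous retroviruses in mESC, was at 42.4, 34.3 and 33.1 in XX mESC, 23.6, 39.4 and 21.6 in XY mESC and 31.9, 28, 28.9 and 27.7 in Tet3-/- mESC. EpiLC libraries held 18, 17.3 and 18.8 in XX, 20.8, 18.5 and 19.3 in XY and 17.7, 11.3 and 18.8 in Tet3-/- cells. It fell in XX (-0.97, adjusted p = 0.00053) and in Tet3-/- cells (-0.86, adjusted p = 0.00081). Its XY value was -0.46 (adjusted p = 0.059), with XY mESC replicate 2 well above the other XY mESC libraries, although every EpiLC library was below every mESC library.

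**Figure D3:**
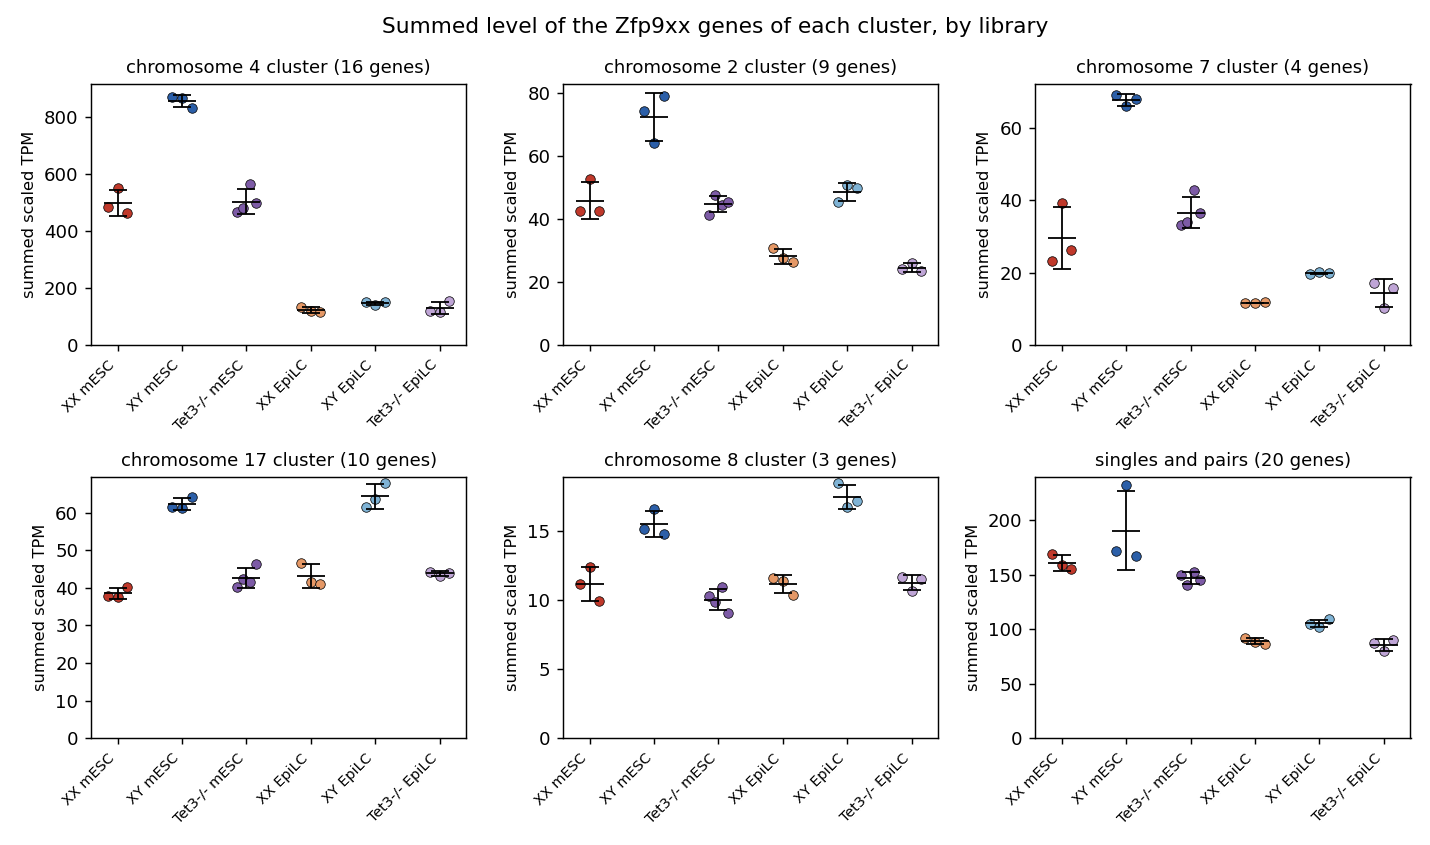
Summed scaled TPM of the Zfp9xx genes in each cluster, by library (points) with the group mean and SD (bars). The chromosome 4 sum drops from 462 or more in all mESC libraries to 156 or less in all EpiLC libraries, whereas the chromosome 17 and chromosome 8 mESC means are 0.888 to 1 times the EpiLC means and are highest in XY.

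Other genes within the clusters were also called lower. Within the chromosome 4 span, all 5 other tested protein-coding genes fell in each transition, with medians of -2.10, -2.71 and -2.19. Within the chromosome 2 span, 17, 15 and 20 of 24 other genes fell in XX, XY and Tet3-/- cells and 0, 1 and 0 rose, with medians of -0.81, -0.77 and -0.91. Within the chromosome 17 span, 4 of 6 other genes fell in each transition and 1 rose, in XX cells. The background over all tested genes was 27%, 26.4% and 27.9% lower and 23%, 24.5% and 23.7% higher.

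The genes through which KRAB zinc finger proteins act were called in both directions, in shares near those of all tested genes. Of 20 co-repressor and heterochromatin genes, 5, 6 and 7 fell and 4, 6 and 3 rose in XX, XY and Tet3-/- cells. That is 25%, 30% and 35% lower, beside 27%, 26.4% and 27.9% of all tested genes, and 20%, 30% and 15% higher, beside 23%, 24.5% and 23.7%. Trim28, the co-repressor bound by the KRAB domain, was at 199 to 303 in XX mESC and 118 to 122 in XX EpiLC, at 219 to 274 and 158 to 176 in XY, and at 188 to 285 and 99.9 to 162 in Tet3-/- cells. The groups did not overlap within a genotype, and Trim28 fell with log2 fold changes of -0.95, -0.56 and -0.85 (adjusted p = 0.00078, 0.026 and 0.0010). Setdb1, which methylates H3K9, fell in all 3 (-0.63, -0.90 and -0.70). Morc3, Hdac2 and Fam208a (TASOR, a subunit of the HUSH silencing complex) also fell in all 3. Cbx5, which encodes an HP1 protein, rose by 1.16, 1.09 and 1.17, and Chd4, a remodelling ATPase, rose by 0.93, 0.67 and 0.56, as did Pphln1, another HUSH subunit, by 0.62, 2.09 and 1.33.

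Between the wild-type lines, members called were nearly all lower in XX than in XY. In mESC 34 of 59 were lower in XX and none higher, where 12.6% of all tested genes were lower and 18.2% higher. A single member, Zfp993, was higher at an unadjusted p under 0.05. In EpiLC 26 were lower and 2 higher, against 15.1% and 17.9%, or 33% in either direction. The medians were -0.43 and -0.32, beside 0.00 and 0.01 over all tested genes. In mESC 38 of the 59 had all XX libraries below all XY libraries, and none above (background 16% and 21%). In EpiLC 41 of the 59 lay below and 7 above (background 31% and 33.9%). The other numbered Zfp genes were lower in 26.4% and 28.4% of cases, with medians of -0.12 and -0.18. The XY libraries also had more RNA of EpiLC markers in EpiLC, summing to 196 to 201 against 51.6 to 54.7 in XX. In mESC that sum was 12.7 to 20.3 in XY and 29.7 to 34.8 in XX, an order that came from Otx2 (means 1.68 and 24). The mESC means of Dnmt3b (11.7 in XY, 6.6 in XX) and Dnmt3a (3.85 and 2.18) were higher in XY. So were those of Fgf5 and Pou3f1, both near 0 in mESC. The XY libraries had a higher sum of mesoderm markers in both states (8.04 to 12.1 against 0.486 to 1.07 in mESC, 15.3 to 18.8 against 3.13 to 3.39 in EpiLC). Most of the XY sum was T, with means of 7.12 in mESC and 14.3 in EpiLC, against 0.0597 and 0.836 in XX. Eomes was higher in XY mESC (2.44 against 0.675) but was not called in EpiLC (2.87 against 2.27, limma adjusted p = 0.646). Mixl1 and Mesp1 were near 0 in both lines. The part of these marker differences in the result was not tested.

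By cluster, the share lower in XX mESC was 11 of 16 on chromosome 4 (median -0.82), 6 of 8 on chromosome 2 (-0.58), 3 of 4 on chromosome 7 (-1.04), 6 of 10 on chromosome 17 (-0.37), 2 of 3 on chromosome 8 (-0.37) and 6 of 18 singles and pairs (-0.18). In EpiLC it was 3 of 16 on chromosome 4, where 2 were higher, and 7 of 8 on chromosome 2. It was 2 of 4 on chromosome 7 and 8 of 10 on chromosome 17. For chromosome 8 it was 2 of 3, and for singles and pairs 4 of 18. Of all tested genes 12.6% were lower in XX mESC and 15.1% in XX EpiLC, where 17.9% were higher. Nearest to the EpiLC background were chromosome 4 (18.8% lower, 12.5% higher) and singles and pairs (22.2% lower). The summed chromosome 4 level in XY was 1.71 times that of XX in mESC and 1.2 times in EpiLC. For chromosome 2 the ratios were 1.58 and 1.73, for chromosome 7 2.29 and 1.7, and for chromosome 17 1.62 and 1.49.

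The lowest XX values relative to XY in mESC were those of Zfp936 and Zfp977, whose levels in every library are given above. In mESC the XY mean was 3.51 times the XX mean for Zfp936 and 2.92 times for Zfp977, with no overlap between the lines. The log2 difference was -1.71 ± 0.15 (SE; limma adjusted p = 6.8e-07) for Zfp936 and -1.41 ± 0.15 (adjusted p = 2.5e-06) for Zfp977. In EpiLC the lowest were Zfp946 (-1.75 ± 0.13, adjusted p = 4.2e-08) and again Zfp936 (-1.06 ± 0.15, adjusted p = 6.3e-05). The 2 members higher in XX EpiLC were Zfp978 (0.80 ± 0.14, adjusted p = 0.00032) and Zfp981 (0.58 ± 0.15, adjusted p = 0.0061), both from chromosome 4 and both at a few scaled TPM or less in every EpiLC library. Under the deposited TPM, in which the median of all genes shifted by -0.58 in EpiLC, 48 members were lower and none higher.

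**Figure D4:**
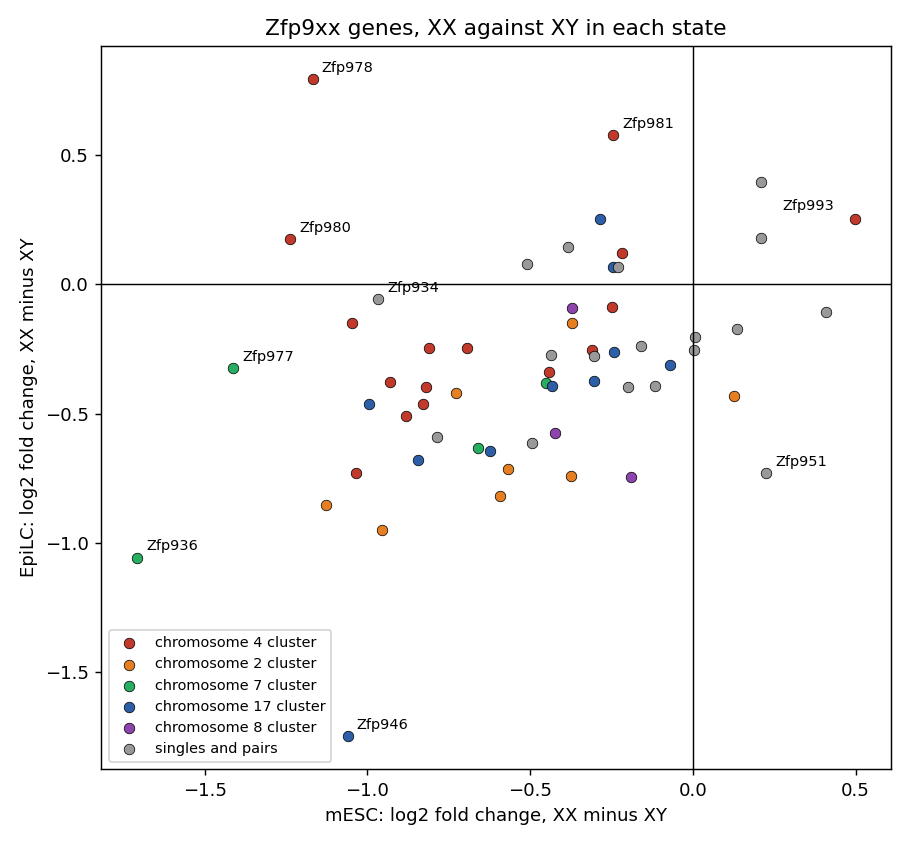
Log2 difference of XX and XY (XX minus XY) in mESC (horizontal axis) and in EpiLC (vertical axis) for the 59 tested Zfp9xx genes, coloured by cluster. Most points lie below 0 on both axes; Zfp978 and Zfp981 lie below 0 in mESC and above 0 in EpiLC.

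The size of the transition itself differed between XX and XY for 14 members, or 23.7% of the 59, where 23.5% of all tested genes were called. The difference is the XX log2 fold change minus the XY one, so a positive value of a member that fell means a steeper fall in XY. It was positive for 11 members and negative for 3, where 11% and 12.4% of all tested genes were called positive and negative. Of the 16 chromosome 4 members, 5 were called, all positive, with a median of 0.40 over the 16 beside -0.01 over all tested genes. The largest differences were those of Zfp978 (1.96 ± 0.20 SE, limma adjusted p = 3.2e-06) and Zfp980 (1.41 ± 0.22, adjusted p = 0.00026). The most negative were those of Zfp951 (-0.96 ± 0.18, adjusted p = 0.00098), which fell further in XX, and Zfp946 (-0.69 ± 0.18, adjusted p = 0.012), which rose further in XY. The split of 11 and 3 rests on the scaling. It was 1 positive and 5 negative under the deposited TPM and 4 and 3 with factors over protein-coding genes. The total fell to 9 with a replicate block, to 8 without a filter, to 9 with a pseudocount of 0.1, and to 9 without XX EpiLC replicate 1, XX EpiLC replicate 2 or XY EpiLC replicate 1. Of the 14 calls those of Zfp978 and Zfp951 held under all 19 alternatives, and those of Zfp936, Zfp942, Zfp989, Zfp954 and Zfp964 were lost under 10 to 15 of them.

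Tet3-/- cells were compared with XX cells of the same line. In mESC 2 members were higher and 1 lower, 5.08% of the 59, where 3.27% of all tested genes were called. Zfp936 was higher in Tet3-/- mESC by 0.64 ± 0.14 (SE; limma adjusted p = 0.022) and Zfp948 by 0.41 ± 0.10 (adjusted p = 0.028), and Zfp961 was lower, at -0.37 ± 0.10 (adjusted p = 0.042). For all 3 genes the 4 mutant libraries did not overlap the 3 XX libraries. Of the 59 members 7 had all mutant libraries higher and 4 all lower, against 5.7% and 6.53% of all tested genes. Leaving out XX mESC replicate 1 or replicate 3 ended all 3 calls, as did Tet3-/- mESC replicate 4. Leaving out Tet3-/- mESC replicate 3 ended the call of Zfp936, and leaving out replicate 1 or replicate 2 ended those of Zfp948 and Zfp961. Where a library left out ended the call, the difference was 0.55 to 0.62 for Zfp936 (limma adjusted p = 0.0508 to 0.139), 0.37 to 0.42 for Zfp948 (0.0582 to 0.156) and -0.39 to -0.33 for Zfp961 (0.0683 to 0.204). Each of 4 other settings (no filter, the deposited TPM, factors over protein-coding genes, and a fit of only the groups compared) also ended all 3 calls. A replicate block, which here joined XX, XY and mutant libraries of the same number, ended those of Zfp948 and Zfp961. No label ties these libraries together. A pseudocount of 0.1 ended the call of Zfp936. Under the deposited TPM the Zfp961 difference was -0.09. Leaving out 1 library at a time gave 0 to 8 called members. On simulated data of this size, 200 genes were changed by 1 on the log2 scale. They were recovered in 72.5% of cases in the Tet3-/- against XX comparison in mESC. For the difference of XX and XY transitions it was 38.5%. A change of 1 is larger than the differences of Zfp936, Zfp948 and Zfp961, so the recovery of changes of their size is not given.

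In EpiLC 2 members were higher and 3 lower in Tet3-/- cells, against 2.2% and 3.23% of all tested genes, or 5.43% in either direction. Zfp951 was higher by 0.69 ± 0.13 (SE; limma adjusted p = 0.0039), with all 3 mutant libraries above all XX libraries as listed above. Zfp992 was higher by 0.42 ± 0.12 (adjusted p = 0.044), also without overlap. Zfp972, on chromosome 2, was at 2.67, 2.75 and 3.34 in XX mESC, 3.28, 4.2 and 4.81 in XY mESC and 2.62, 2.6, 2.14 and 2.23 in Tet3-/- mESC. In EpiLC it was at 3.82, 2.74 and 3.41 in XX, 3.71, 3.11 and 4.58 in XY and 1.73, 1.16 and 1.81 in Tet3-/- cells. The mutant EpiLC libraries were the lowest of all and did not overlap XX EpiLC, with a log2 difference of -0.75 ± 0.15 (limma adjusted p = 0.0068). Zfp956 was at 3.11, 2.79 and 2.58 in XX mESC, 2.64, 3.24 and 2.57 in XY mESC and 2.66, 2.83, 2.46 and 2.25 in Tet3-/- mESC. Its EpiLC levels were 2.91, 3.12 and 3.54 in XX, 3.73, 3.91 and 3.79 in XY and 1.99, 1.79 and 2.03 in Tet3-/- cells. Again the mutant EpiLC libraries were the lowest, with a difference of -0.51 ± 0.10 (adjusted p = 0.006). The last of the 5, Zfp989, differed by -0.49 ± 0.13 (adjusted p = 0.033). The calls of Zfp992 and Zfp989 were lost when any of the 3 XX EpiLC libraries, or Tet3-/- EpiLC replicate 1, was left out. Leaving out Tet3-/- EpiLC replicate 4 also ended the call of Zfp992, and leaving out replicate 3 that of Zfp989. Without these libraries the Zfp992 difference was 0.39 to 0.48 (limma adjusted p = 0.0641 to 0.168) and the Zfp989 difference -0.56 to -0.44 (adjusted p = 0.0567 to 0.151). With a replicate block the Zfp992 call was lost (0.40, adjusted p = 0.0957). A fit of only the groups compared ended the calls of Zfp972, Zfp956, Zfp989 and Zfp992.

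The library Tet3-/- EpiLC #3, which stood apart in its mesoderm marker level, is 1 of the 3 mutant EpiLC libraries. Without it 5 members were called in EpiLC, 3 higher and 2 lower. The Tet3-/- transition then had 37 members lower and 3 higher. The members called in EpiLC were 0 under the deposited TPM and 2, both lower, with factors over protein-coding genes.

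The transition differed between Tet3-/- and XX cells for a single member, Zfp951, in the positive direction. Of all tested genes 0.234% were called positive and 0.394% negative, 0.628% together. Its fall was smaller in Tet3-/- cells by 0.95 ± 0.17 on the log2 scale (limma adjusted p = 0.014). This call was lost when any of XX mESC replicates 1 and 3 or XX EpiLC replicates 2 and 3 was left out (0.88 to 0.95, limma adjusted p = 0.0508 to 0.0548). It was also lost with a replicate block (0.87, adjusted p = 0.0903), in a fit of only the groups compared (0.95, adjusted p = 0.081), under the deposited TPM (0.61, adjusted p = 0.655) and with factors over protein-coding genes (0.79, adjusted p = 0.182). No member was called negative, and at an unadjusted p under 0.05 limma gave 4 positive and 8 negative members. The median over the members was -0.07, beside 0.01 over all tested genes.

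**Figure D5:**
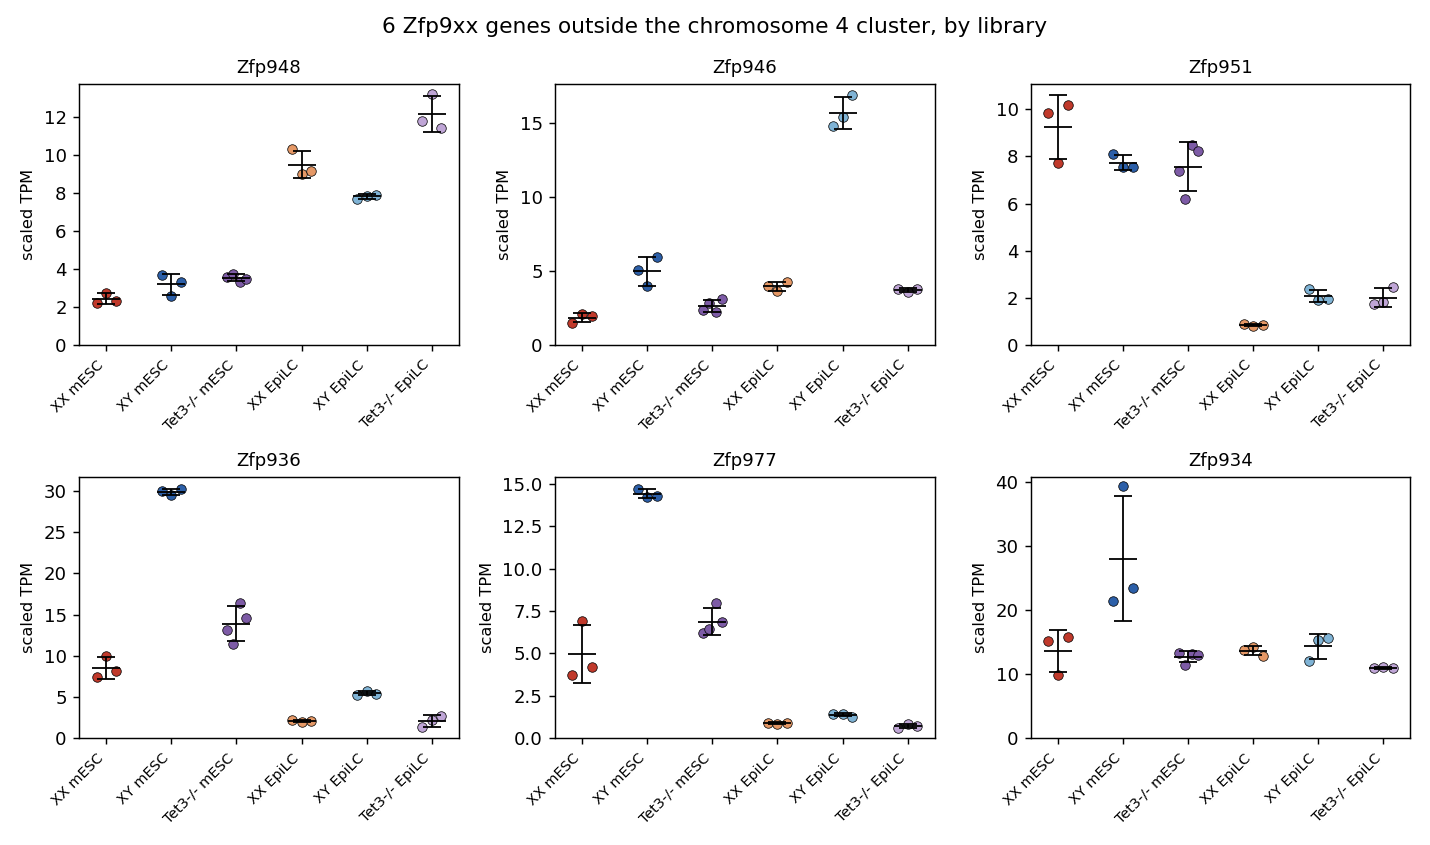
Scaled TPM in each of the 19 libraries (points, by group, with the group mean and SD as bars) for Zfp948, Zfp946, Zfp951, Zfp936, Zfp977 and Zfp934, members outside the chromosome 4 cluster. Zfp948 is higher in every EpiLC library than in every mESC library, Zfp946 is highest in XY EpiLC, Zfp951 is lowest in XX EpiLC, Zfp936 and Zfp977 are highest in XY mESC, and XY mESC replicate 2 holds the highest value of Zfp934, at 39.3.

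The members share sequence with other genes, whether members or not, to very different degrees, which bears on how reads could be assigned. The share of a member's 31-base words that also occur in transcripts of other genes had a median of 34.1% and ran from 0.883% to 100%. It was highest on chromosome 2 (median 90.5%) and chromosome 4 (74.1%) and lower on chromosome 17 (13.6%) and among singles and pairs (7.79%). Values of single genes in the first 2 clusters are uncertain for that reason, and of Zfp969 and Zfp935, which were listed at or near 0, all such words are shared. Among the 41 tested members with under 50% shared, 17, 20 and 25 fell and 4, 4 and 3 rose in XX, XY and Tet3-/- cells. The background over all tested genes was 27%, 26.4% and 27.9% lower and 23%, 24.5% and 23.7% higher. On chromosome 4, 6 members had under 50% shared (Zfp979, Zfp982, Zfp985, Zfp990, Zfp992 and Zfp933), of which 5 fell in each transition.

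In the translated coding sequences of the GENCODE annotation, a match to the KRAB A box was found in 56 of the 62 members, and in all 16 on chromosome 4. No match was found in Zfp945, Zfp950, Zfp956, Zfp957, Zfp972 and Zfp974. The number of C2H2 fingers had a median of 11 and ran from 0 to 21, and on chromosome 4 it ran from 2 to 15.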

How the data were processed

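RNA levels were taken from 1 deposited table of TPM values for 140948 transcripts in 19 libraries. Per the submitters' processing notes, the authors used FastQC 0.11.7, Trimmomatic 0.35 and Salmon 1.1.0 with GRCm38, and the annotation release is not given in the sources used here. Transcript TPM were summed per gene with GENCODE M21, where 139357 transcript identifiers matched with their version, 495 without it and 1096 not at all (0.0454% to 0.215% of a library's TPM). Sums were divided by median-of-ratios factors over 18385 genes above 0 in all libraries. Genes that reached a deposited TPM of 1 in 3 or more libraries entered limma 3.58.1 (R 4.3.3), run on log2(scaled TPM + 1), in 1 fit of 6 groups with a trended prior, with Benjamini-Hochberg adjustment per comparison and a threshold of 0.05. The fit was tested on simulated data. TPM keeps no depth, so no counting error could be given.

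Members and gene lists were chosen with earlier results of these data known. Values per library are given for the members with the 3 highest and 3 lowest called fold changes in each transition, the 2 highest and 2 lowest in the other comparisons, those called alike in all 3 transitions, and a few others chosen after their values were seen (Zfp932, Zfp991 and Zfp933 among them). Shared 31-base words, fingers (C, 2 residues, C, 12 residues, H, 3 or 4 residues, H) and KRAB matches come from GENCODE transcripts and coding sequences, in place of the RefSeq proteins first planned, with Biopython 1.88. Promoters are from RefSeq. The settings varied were the pseudocount (0.1), the filter (none, or a mean TPM of at least 0.5), the scaling (none, or factors over protein-coding genes), a fit of only the groups compared, a block for replicate number, and each library left out.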

Additional observations from a re-analysis of the deposited data

Results flagged for a closer look

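In the group of 4 Tet3-/- mESC libraries, 1 library lay apart from the others for 4 of the 59 members, by Dixon's criterion at a critical value of 0.829. Chance flags about 1 in 20 groups. Zfp973 was at 6.18 in #1, with the others between 7.35 and 7.51. Zfp992 was at 17.1 in #3, with the others between 12.5 and 13.3, and Zfp985 was at 48.6 in #3, with the others between 35.8 and 37.9. Zfp934 was at 11.4 in #2, with the others between 13 and 13.3.

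The fold change of the transition differed between XX and XY cells, by the test of that difference in limma, for 14 members, or 23.7% of the 59, where 23.5% of all tested genes were called. On the log2 scale it was higher in XX than in XY by 1.96 for Zfp978, 1.41 for Zfp980, 1.09 for Zfp977, 0.91 for Zfp934 and 0.90 for Zfp988. Smaller positive differences were those of Zfp981 (0.82), Zfp936 (0.65), Zfp989 (0.56), Zfp948 (0.54), Zfp942 (0.53) and Zfp954 (0.53). The negative differences were -0.96 for Zfp951, -0.69 for Zfp946 and -0.56 for Zfp964. The calls of Zfp936, Zfp942, Zfp989, Zfp954 and Zfp964 were lost under 10 to 15 of 19 alternative settings, and that of Zfp934 under 6. Between Tet3-/- and XX cells the transition differed for Zfp951, by 0.95.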

How the results depend on the processing

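The lower calls of the chromosome 4 cluster were the most stable. Of its 15, 15 and 14 members called lower in XX, XY and Tet3-/- cells, at least 14, 14 and 14 kept the call under every alternative run. Outside that cluster, 7 of 17, 4 of 20 and 17 of 27 kept it under the deposited TPM. That setting also reversed Zfp942 (0.21), Zfp995 (0.22), Zfp970 (0.17) and Zfp966 (0.0864) in the XY transition, where none of the 4 then passed the test. The counts of called members were then 23 in the XX transition, 48 for XX against XY in EpiLC, 6 for the difference of XX and XY transitions, and 0 for each comparison of Tet3-/- with XX cells. With factors over protein-coding genes, the difference of XX and XY transitions had 7, Tet3-/- against XX had 0 in mESC and 2 in EpiLC, and the difference of Tet3-/- and XX transitions 0. Without a filter, Tet3-/- against XX had 0 in mESC and 3 in EpiLC, and the difference of XX and XY transitions 8, which was 9 with a pseudocount of 0.1. In fits of only the groups compared, the counts were, with the mutants set against XX, 0 in mESC and 1 in EpiLC, 44 for XX against XY in EpiLC and 0 for the difference of Tet3-/- and XX transitions. Of the calls in these comparisons none of Tet3-/- against XX, and 2 of 14 for the difference of XX and XY, held under every alternative. The cause was not tested.

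Leaving out 1 library at a time gave 33 to 36 called members in the XX, 37 to 38 in the XY and 40 to 44 in the Tet3-/- transition. It gave 26 to 35 for XX against XY in mESC, 19 to 25 in EpiLC (28 with all libraries, the lowest without XX EpiLC replicate 3), 0 to 8 (mESC) and 3 to 5 (EpiLC) for the mutants against XX, 9 to 17 for the difference of XX and XY transitions and 0 to 2 for that of Tet3-/- and XX.

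For XX and XY cells the labels give replicates a number and nothing that ties mESC to EpiLC. For Tet3-/- cells they give the same mutant numbers in both states, without saying what a number stands for. Deviations of same-numbered mESC and EpiLC libraries correlated at 0.0396, -0.0526 and 0.0612 in XX, 0.209, -0.0279 and 0.275 in XY and 0.223, 0.226 and -0.0887 in Tet3-/- cells. With a replicate block the counts were 35, 39 and 39 in the 3 transitions and 9 and 0 for the differences of transitions. They were 32 and 27 for XX against XY in mESC and EpiLC, and 1 and 4 for Tet3-/- against XX. In these comparisons within a state the block joined libraries of the same number across XX, XY and Tet3-/- cells. No label ties such libraries together.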
